A study of Mus musculus with 10 samples.

Results

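The genes that make hyaluronan's sugar nucleotides, join them, cut the chain and bind it were followed in bulk RNA-seq of Panc02 tumors. They were 10 of the 37417 genes in the count table and were chosen by name for their role, with earlier results of these data known. The set held the UDP-sugar enzymes Ugp2, Ugdh, Uap1 and Gfpt1, the hyaluronan synthases Has1, Has2 and Has3, the hyaluronidases Hyal1 and Hyal2, and the hyaluronan receptor Cd44. All 10 passed the filter on low counts, as did 15299 genes in all.

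Hyaluronan is a long unsulfated glycosaminoglycan of the extracellular matrix, built from alternating glucuronic acid and N-acetylglucosamine. The synthases sit in the plasma membrane, take UDP-glucuronic acid and UDP-N-acetylglucosamine from the cytosol and push the growing chain out of the cell. Both precursors are uridine diphosphate sugars, so their supply draws on the uridine nucleotide pool, to which cytidine deaminase (CDA) contributes by turning cytidine into uridine. The paper measured that contribution in culture at a cytidine dose it called supraphysiological. The paper also measured the interstitial fluid of orthotopic tumors of a KPC pancreatic line. There it reported more cytidine and less uridine, UDP and UTP after Cda editing. It reported no major change in UDP-hexose after Cda editing in a cultured KPC pancreatic line, and no difference in Panc02 cells. Pancreatic tumors are known for a stroma rich in hyaluronan.

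Panc02 is a mouse pancreatic cancer cell line. Its cells received a doxycycline-inducible Cas9 and a guide vector with puromycin selection, and were injected under the skin of the right flank of C57BL/6J mice, labelled wild type and aged 12 weeks. The guide was nontargeting in 5 tumors (sgNT) and directed against Cda in 5 tumors (sgCda), and all 10 tumors were collected on day 16 with no further treatment. Per the methods, pooled single-cell clones served for survival experiments alone, and how the cells of these tumors were derived was not stated beyond selection. Only cells of the line carried a guide, and host cells within the tumor were unedited. Tumors are named below by group and replicate number, such as sgCda 3, and the labels number them as separate tumors without a mouse identity, so p values measure the spread between these samples.

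Libraries held 28051907 to 39484964 counts assigned to genes, so that 3 counts, taken as the floor of a library, equalled 0.0754 to 0.106 CPM, the count scaled to library size. The library sgCda 4 had the highest share of reads outside genes, 18.4% against 10.3% to 14.9% in the other tumors, and the highest mitochondrial share, 5.82% against 3.47% to 3.81%. It lay at one end of the first principal component and sgCda 3 at the other. Cda itself was measured at 10.1, 11.7, 12.8, 14.7 and 11.1 CPM in sgNT 1 to 5 and at 8.34, 8.43, 12.1, 7.47 and 12.5 CPM in sgCda 1 to 5. The groups overlapped, and the log2 fold change was -0.30 (SE 0.17, edgeR adjusted p = 0.9996). Cas9 cuts DNA and need not lower the transcript, so the level of Cda RNA here is no check of the edit. Per the methods, the edited lines were checked by western blotting and by RT-qPCR with primers in the targeted region. The paper also found Cda RNA in endothelial cells, and some in fibroblasts, sorted from tumors of this line. The tumor cell markers Krt8 (mean 464.1 CPM over the 10 tumors) and Krt18 (229.0 CPM) were high, Krt19 was at 15.4 CPM and Cdh1 at 17.1 CPM, while Epcam was at 1.40 CPM and Krt7 at 0.683 CPM. In bulk tumor RNA, fewer cells of a type and less RNA per cell cannot be told apart.

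The sequences upstream of the start sites are shown for 3 genes whose levels went up and down together across the tumors (Ugdh, Has1 and Cd44, described further on). Each is the run of 250 bases before the RefSeq start, read 5′ to 3′ on the gene's strand from GRCm38.p6, with capitals marking a GC box (GGGCGG) or a CCAAT box, each on either strand.
Ugdh: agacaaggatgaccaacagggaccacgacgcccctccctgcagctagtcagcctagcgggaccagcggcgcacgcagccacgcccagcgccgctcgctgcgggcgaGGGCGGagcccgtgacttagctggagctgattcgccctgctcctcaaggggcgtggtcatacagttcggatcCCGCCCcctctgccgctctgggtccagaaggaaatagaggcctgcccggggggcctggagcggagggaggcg
Has1: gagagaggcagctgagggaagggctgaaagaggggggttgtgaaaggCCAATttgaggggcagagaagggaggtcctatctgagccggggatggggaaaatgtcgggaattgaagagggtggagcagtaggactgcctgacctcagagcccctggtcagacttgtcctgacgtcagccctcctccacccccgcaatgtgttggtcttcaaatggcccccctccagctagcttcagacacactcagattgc
Cd44: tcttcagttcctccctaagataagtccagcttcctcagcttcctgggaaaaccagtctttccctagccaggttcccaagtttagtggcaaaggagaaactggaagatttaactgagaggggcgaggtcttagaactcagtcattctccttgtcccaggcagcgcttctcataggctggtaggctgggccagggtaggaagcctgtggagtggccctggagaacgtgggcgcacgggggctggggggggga
The Ugdh sequence lies at chr5:65435843-65436092 on the minus strand, is 69.2% G or C and holds 2 GC boxes. That of Has1, at chr17:17855189-17855438 on the minus strand, is 58.0% G or C and holds 1 CCAAT box. That of Cd44, at chr2:102901666-102901915 on the minus strand, is 56.4% G or C and holds neither motif. Sequences were found for 8 of the 10 genes, with more than 1 start for Ugp2. They were 55.6% to 73.6% G or C, against a median of 52.4% over all mouse regions. The part of this content in the matches below was not tested. A GC box was in 6 of the 8, against 32.7% of 32851 mouse regions of the same length, and a CCAAT box in 5 of the 8, against 33.8%. None of a TATA box (TATAAA), an AP-1 site (TGACTCA), an unfolded protein response element (TGACGTG) and an E2F site (TTTGGCGC), searched on both strands, occurred in any of the 8, and they occurred in 12.4%, 4.46%, 1.65% and 0.417% of all regions. These are matches of letters only.

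The 4 UDP-sugar enzymes were all well expressed, and none was called different between guides. Ugp2 (chr11:21321138-21371201, minus strand, 10 exons) encodes UDP-glucose pyrophosphorylase, which joins glucose 1-phosphate to UTP. Its level was 78.9, 75.5, 86.5, 87.9 and 75.2 CPM in sgNT 1 to 5 and 82.9, 78.9, 100.4, 68.7 and 86.1 CPM in sgCda 1 to 5. The sgCda tumors held both the highest value (sgCda 3) and the lowest (sgCda 4), with the sgNT tumors in between. The means were 80.8 ± 6.00 and 83.4 ± 11.5 CPM (SD, n = 5 each), a log2 fold change of 0.046 (SE 0.096), with a 95% interval of the difference from -10.8% to 19.5%.

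Ugdh (chr5:65413221-65435949, minus strand, 12 exons) encodes UDP-glucose dehydrogenase, which oxidizes UDP-glucose to UDP-glucuronic acid. Its level was 106.6, 109.5, 128.5, 146.9 and 123.2 CPM in sgNT 1 to 5 and 113.5, 106.3, 149.2, 113.3 and 128.6 CPM in sgCda 1 to 5. One tumor of each group, sgNT 4 and sgCda 3, stood at the top, and the groups overlapped over nearly their whole range. The means were 123.0 ± 16.2 and 122.2 ± 17.1 CPM (SD, n = 5 each), with a log2 fold change of -0.0091 (SE 0.11) and a 95% interval from -0.25 to 0.24.

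Gfpt1 and Uap1 stand at the entry and the exit of the hexosamine pathway that yields UDP-N-acetylglucosamine. Gfpt1 (chr6:87042846-87092197, plus strand, 20 exons), the rate-limiting amidotransferase, was at 129.5, 136.2, 141.5, 130.4 and 121.2 CPM in sgNT 1 to 5 and at 126.6, 130.6, 135.3, 121.4 and 123.0 CPM in sgCda 1 to 5. Uap1 (chr1:170141938-170174957, minus strand, 11 exons), which makes the UDP-sugar itself, was at 58.1, 61.1, 62.6, 59.4 and 59.3 CPM in sgNT 1 to 5 and at 56.8, 54.0, 61.5, 58.3 and 57.2 CPM in sgCda 1 to 5. Both genes were nearly level across all tumors and overlapped between groups. The log2 fold change of Gfpt1 was -0.049 (SE 0.058) and that of Uap1 -0.063 (SE 0.054), with a 95% interval for Uap1 from -11.8% to 4.00%. Gfpt1 provided 98.2% ± 1.04 of the summed per-length level of Gfpt1 and its paralog Gfpt2 (SD, n = 10).

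**Figure D1:**
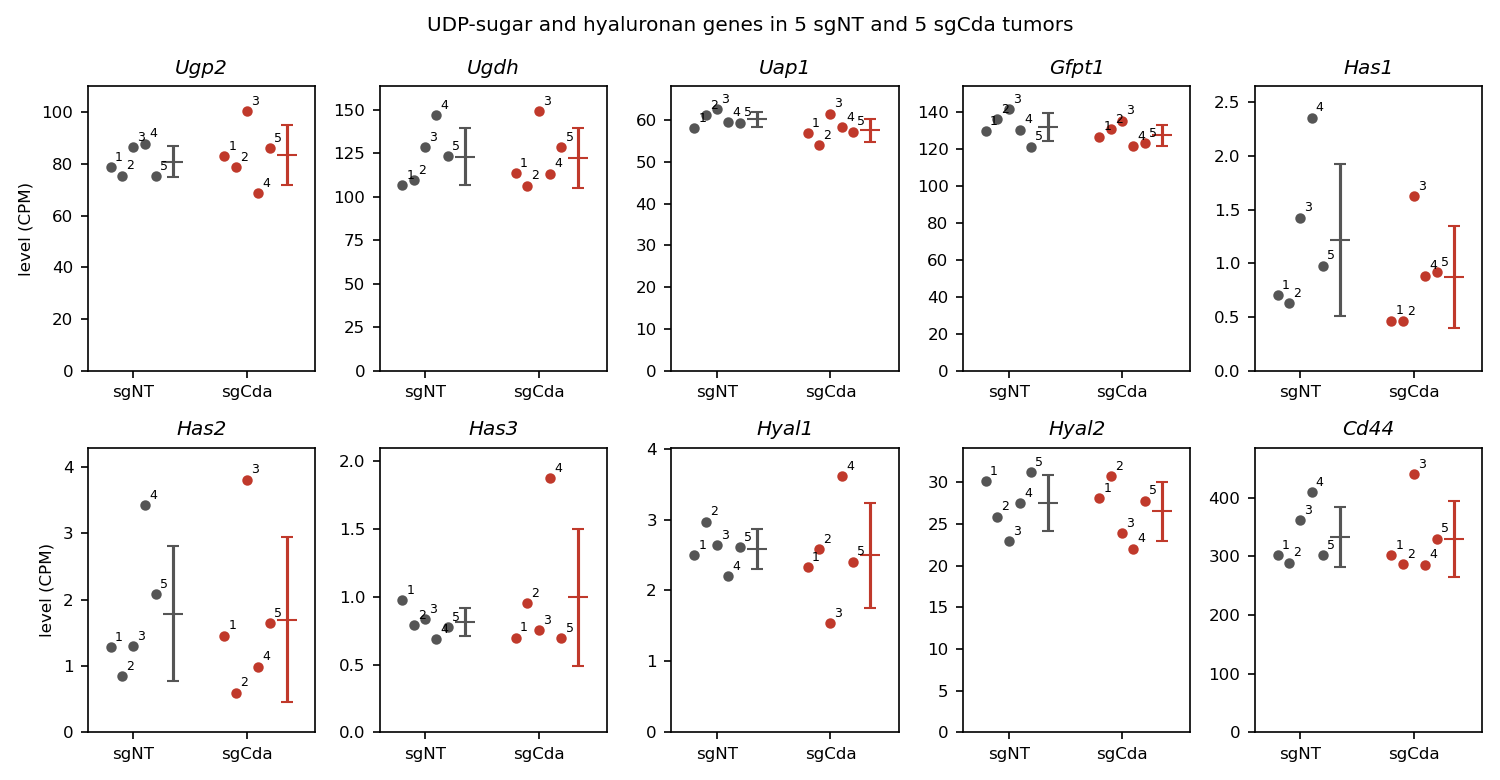
Levels of the 10 genes in each tumor, in CPM on linear axes from 0, with 1 numbered point per tumor and, beside each group, a dash for the mean with error bars for the SD. The groups overlap in every panel, and the synthases spread over the widest range, up to 6.36-fold between tumors for Has2.

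The 3 synthases were at 3.81 CPM or less in every tumor, and their levels spread more between tumors than between guides. Has2 (chr15:56665627-56694539, minus strand, 4 exons), the synthase required for the developing heart and the main one of many mesenchymal cells, was at 1.28, 0.853, 1.30, 3.42 and 2.09 CPM in sgNT 1 to 5 and at 1.46, 0.598, 3.81, 0.992 and 1.65 CPM in sgCda 1 to 5. Again sgNT 4 and sgCda 3 were highest, and the rest of both groups lay below 2.10 CPM. The means were 1.79 ± 1.02 and 1.70 ± 1.25 CPM (SD, n = 5 each). Between them the log2 fold change was -0.073 (SE 0.50), with an interval from -55.5% to 103.3%. Both a doubling and a halving of Has2 lie within this interval. The library counts behind these values ran from 22 to 136.

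Has1 (chr17:17843323-17855205, minus strand, 5 exons), a synthase that needs high precursor levels in biochemical assays, was at 0.708, 0.632, 1.43, 2.36 and 0.980 CPM in sgNT 1 to 5 and at 0.467, 0.462, 1.62, 0.886 and 0.918 CPM in sgCda 1 to 5. The highest sgCda value, in sgCda 3, exceeded all sgNT values but that of sgNT 4. The means were 1.22 ± 0.707 and 0.871 ± 0.474 CPM (SD, n = 5 each), on counts of 16 to 75. The log2 fold change of -0.48 (SE 0.44) was the most negative of the 10 genes, and its interval ran from -63.7% to 40.7%. It was -0.11 without sgNT 4 and -0.84 without sgCda 3.

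Has3 (chr8:106870242-106884566, plus strand, 4 exons), a synthase known for making shorter chains, was at 0.978, 0.790, 0.837, 0.691 and 0.779 CPM in sgNT 1 to 5 and at 0.700, 0.952, 0.755, 1.88 and 0.696 CPM in sgCda 1 to 5. A single tumor, sgCda 4, was above all the others, and 3 of the sgCda tumors were below the sgNT mean. On counts of 22 to 53, the log2 fold change was 0.28 (SE 0.30), and -0.066 without sgCda 4. That library also had the highest share of reads outside genes, given above, whose part in the value was not tested.

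Per kilobase of exon, the share of Has2 in the summed synthase level was 49.8% ± 7.97 with the nontargeting guide and 50.2% ± 15.1 with the Cda guide (SD, n = 5 each). Has1 made up 32.0% ± 6.98 and 25.4% ± 3.99, and Has3 18.3% ± 7.82 and 24.5% ± 14.1. Has2 was the leading synthase per length in 7 tumors, Has1 in 1 (sgNT 3) and Has3 in 2 (sgCda 2 and sgCda 4). The summed synthase level was 0.612, 0.465, 0.754, 1.44 and 0.831 CPM per kilobase in sgNT 1 to 5 and 0.557, 0.393, 1.38, 0.724 and 0.701 CPM per kilobase in sgCda 1 to 5. Its highest values were thus in sgNT 4 and sgCda 3, where Has2 was the leading form, and the lowest in sgCda 2 and sgNT 2.

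**Figure D2:**
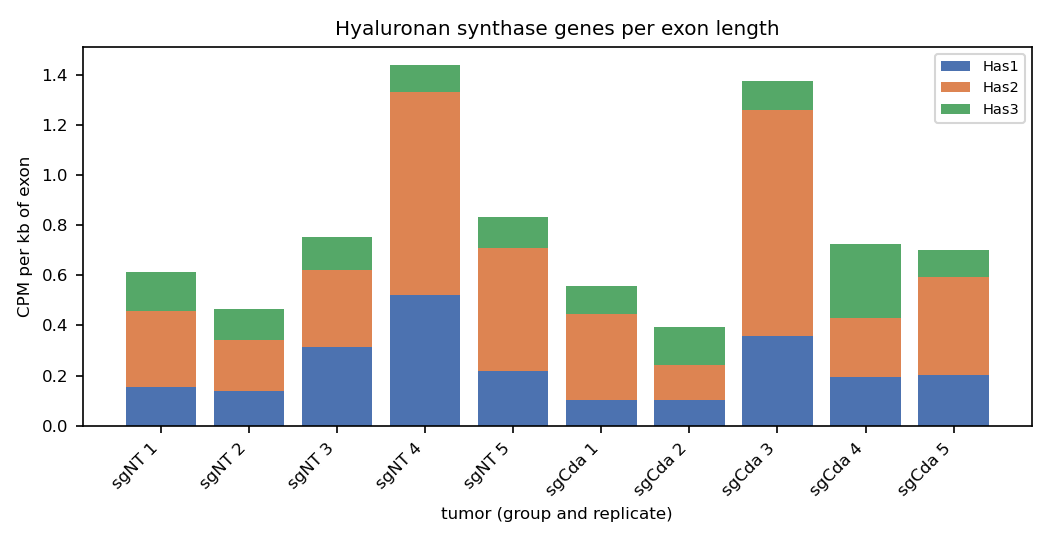
Stacked bars of Has1, Has2 and Has3 in each tumor, in CPM per kilobase of exon from 0. The bars of sgNT 4 (1.44) and sgCda 3 (1.38) are the tallest, with Has2 the tallest segment of both.

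Of the hyaluronidases, Hyal2 was the abundant form and Hyal1 the scarce one, and neither was called different between guides. Hyal2 (chr9:107567945-107572779, plus strand, 5 exons), anchored at the cell surface, where it cuts long chains, was at 30.1, 25.9, 22.9, 27.5 and 31.2 CPM in sgNT 1 to 5 and at 28.1, 30.8, 23.9, 22.0 and 27.8 CPM in sgCda 1 to 5. Its log2 fold change was -0.055 (SE 0.11), and 3 of the 5 sgCda tumors were above the sgNT mean. Hyal1 (chr9:107576927-107581710, plus strand, 4 exons), the lysosomal enzyme that takes the fragments further, was at 2.49, 2.97, 2.64, 2.20 and 2.61 CPM in sgNT 1 to 5 and at 2.33, 2.58, 1.54, 3.61 and 2.40 CPM in sgCda 1 to 5. Its extremes were sgCda 3, the lowest, and sgCda 4, the highest, and its log2 fold change was -0.052 (SE 0.21). Of the exonic bases of Hyal1, 51.9% overlap Naa80 or Hyal3 on the same strand, and HTSeq by default leaves out reads that fall on several genes. Its level may therefore be an underestimate, and its fold change and its correlations are uncertain. Hyal2 made up 92.3% ± 2.05 of the summed per-length level of both (SD, n = 10).

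Cd44 (chr2:102811141-102901665, minus strand, 19 exons), the cell surface receptor through which many cells bind hyaluronan, had the highest level of the set. It was at 301.6, 289.2, 362.2, 409.3 and 302.1 CPM in sgNT 1 to 5 and at 302.7, 286.3, 440.6, 285.9 and 330.3 CPM in sgCda 1 to 5. The highest tumors were again sgCda 3 and sgNT 4, followed by sgNT 3, and the other 7 tumors lay within 285.9 to 330.3 CPM. The means were 332.9 ± 51.3 and 329.1 ± 64.9 CPM (SD, n = 5 each), with a log2 fold change of -0.016 (SE 0.14) and an interval from -20.0% to 22.2%. These counts do not separate the splice forms of the receptor.

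Ordered by level per kilobase of exon over the 10 tumors, Cd44 came first (48.9 ± 8.14 CPM per kilobase), followed by Ugp2 (26.8 ± 2.86), Ugdh (18.2 ± 2.33), Uap1 (14.7 ± 0.637), Gfpt1 (12.9 ± 0.671) and Hyal2 (8.21 ± 0.991). Hyal1 (0.672 ± 0.141), Has2 (0.412 ± 0.253), Has1 (0.231 ± 0.132) and Has3 (0.142 ± 0.0558) followed (SD, n = 10). The ranges of neighbours overlapped for Uap1 and Gfpt1, Hyal1 and Has2, Has2 and Has1, and Has1 and Has3. Within tumors, Uap1 was still above Gfpt1 in 10 of 10, whereas Hyal1 was above Has2 in 8, Has2 above Has1 in 9 and Has1 above Has3 in 7 of the 10 tumors.

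Of the 10 genes, 0 passed an adjusted p of 0.05 in edgeR's quasi-likelihood test, against a background of 0.00% of the 15299 genes tested. DESeq2 and limma-voom also called 0 of the 10. At an unadjusted p under 0.05 the count was 0 of 10, against 2.50% of all genes (382 genes, of which 0.954% of all were lower and 1.54% higher in sgCda tumors), and the smallest unadjusted p of the 10 was 0.272, for Uap1, with an adjusted p of 0.9996 in edgeR. The tumor groups overlapped for all 10, where they did not overlap for 0.601% of all genes. The log2 fold change was positive for 2 of the 10 (Ugp2 and Has3) and negative for 8, with a median of -0.050 against 0.0078 over all genes, of which 52.9% were positive. A p that misses the threshold does not show that the groups are alike. By the intervals, the log2 change of Uap1 and Gfpt1 lay within -0.18 and 0.079, while that of Has2 lay within -1.17 and 1.02.

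**Figure D3:**
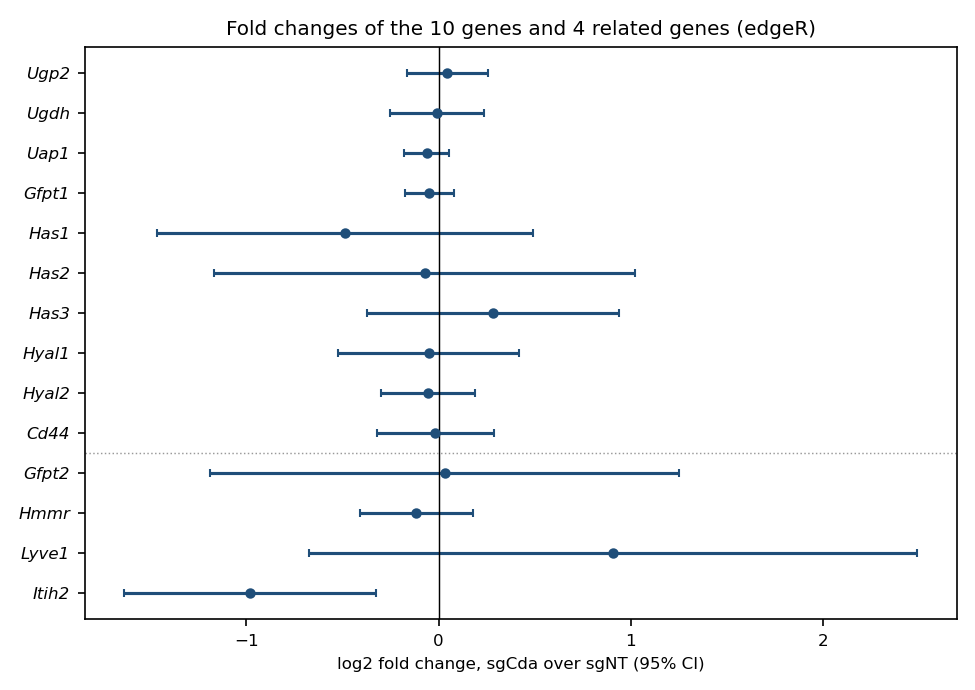
Log2 fold change, sgCda relative to sgNT, of the 10 genes and, under the dotted line, of Gfpt2, Hmmr, Lyve1 and Itih2 from the wider pathway, with 95% confidence intervals from edgeR. The intervals of all 10 genes cross 0, those of the synthases are the widest of the 10, and that of Itih2 runs from -1.63 to -0.32 with an adjusted p of 0.9996.

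The wider pathway was read from a list of 68 further genes, of which 55 passed the filter. None of the 55 passed an adjusted p of 0.05 in edgeR. At an unadjusted p under 0.05 the count was 1 of 55, against 2.50% of all genes. This gene was lower in sgCda tumors, and 0.954% of all genes were lower at the same limit. Of the log2 fold changes, 27 were positive and 28 negative, with a median of -0.010. The hexosamine and UDP-sugar supply genes (16 of 16 tested), among them the phosphoglucomutases and the enzymes of galactose entry, lay between -0.064 and 0.092, 10 positive and 6 negative. Of the UDP-sugar transporters into the Golgi and endoplasmic reticulum, 5 of 5 were tested, with 4 positive. Of 10 genes of hyaluronan and glycosaminoglycan breakdown 8 were tested, of 5 receptors 4, of 16 hyaluronan-binding matrix genes 7, and of 16 enzymes of other glycosaminoglycan chains 15.

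The gene with an unadjusted p under 0.05 was Itih2, a heavy chain of the inter-alpha-trypsin inhibitor family that becomes bound to hyaluronan. It was at 0.472, 0.884, 0.620, 1.10 and 0.477 CPM in sgNT 1 to 5 and at 0.350, 0.408, 0.336, 0.248 and 0.443 CPM in sgCda 1 to 5, on counts of 7 to 35. The groups did not overlap in CPM, which held for 0.294% of all genes in this direction. The nearest values, 0.472 CPM in sgNT 1 and 0.443 CPM in sgCda 5, were closer together than the 3-count floor. That floor was 0.101 and 0.0949 CPM in these 2 libraries, so the separation is within counting error. The log2 fold change was -0.98 (SE 0.30, edgeR adjusted p = 0.9996). Lyve1, the hyaluronan receptor of lymphatic endothelium, ranged from 0.248 to 8.87 CPM among the sgCda tumors and from 0.916 to 2.54 CPM among the sgNT tumors, with a log2 fold change of 0.91 and an interval from -0.68 to 2.49. Hmmr, a hyaluronan receptor that is also a mitotic spindle protein, was at 99.0 ± 10.3 and 91.4 ± 18.6 CPM (SD, n = 5 each, log2 fold change -0.12). Gfpt2, the paralog of Gfpt1, ranged from 0.474 to 2.46 CPM in sgNT and from 0.213 to 2.41 CPM in sgCda tumors. P2ry14, the receptor for extracellular UDP-glucose, was at 19.9 ± 4.75 and 20.2 ± 3.46 CPM (SD, n = 5 each), with a log2 fold change of 0.017 and an interval from -0.35 to 0.38.

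The 10 genes differed in how widely they spread over the tumors. The SD of log2 CPM over the 10 tumors was 0.063 for Uap1 and 0.075 for Gfpt1, and 97.9% and 95.5% of all tested genes had a higher SD. It was 0.81 for Has2 and 0.72 for Has1, and only 4.36% and 5.80% of all tested genes had a higher one. Cd44 (0.23), Ugdh (0.18), Hyal2 (0.18) and Ugp2 (0.15) were near the median of all genes, 0.203, with Has3 (0.41) and Hyal1 (0.31) between. Counting error is larger for the 4 genes of low count, the synthases and Hyal1, and is included in these SDs.

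Across the 10 tumors, Ugdh, Has1, Has2 and Cd44 varied together, Ugp2 varied with Ugdh and Cd44, and Hyal1 ran against Ugp2 and Cd44. Of 45 pairs of the 10 genes, 14 had a permutation p under 0.05 and 10 passed after Benjamini-Hochberg adjustment over the 45, of which 8 were positive (two-sided permutation test on Pearson's r of log2 CPM, 100000 resamples). By Spearman's rho 5 passed, none of them with Hyal1. A high r was common among all genes: of the 15298 other tested genes, 5.75% had r of 0.8 or more with Cd44. A further 7.54% had r of -0.8 or less. These shares were 5.50% and 5.09% for Ugdh, 4.05% and 6.03% for Ugp2 and 5.39% and 3.68% for Hyal1. For Has2 they were 3.22% and 2.56%, and for Has1 2.48% and 1.62%. The share of all gene pairs at the p limits used here was not computed. The counts of 14 and 10 therefore do not show whether these genes vary together more than other genes. All p values of this and the next paragraph are from permutation tests.

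Ugdh and Cd44 had the highest r, 0.94 (p = 0.00014, adjusted p = 0.0030), with rho 0.89 (p = 0.00127, adjusted p = 0.0190) by permutation. With each tumor taken relative to the mean of its group, r was again 0.94. Ugdh followed Has1 with r 0.90 (permutation p = 0.00048, adjusted p = 0.0045) and rho 0.87 (adjusted p = 0.0247), and Has2 with r 0.89 (adjusted p = 0.0045) and rho 0.90 (adjusted p = 0.0166). Ugp2 followed Cd44 with r 0.88 (permutation adjusted p = 0.0018) and rho 0.92 (adjusted p = 0.0166). The remaining positive pairs were Has1 with Cd44 (r 0.86, rho 0.76), Has2 with Cd44 (r 0.84, rho 0.85), Has1 with Has2 (r 0.79, rho 0.79) and Ugp2 with Ugdh (r 0.76, rho 0.72). The negative pairs were Hyal1 with Ugp2 (r -0.93, rho -0.78) and Hyal1 with Cd44 (r -0.79, rho -0.73). Over these 6 pairs the permutation adjusted p ran from 0.0030 to 0.0397 for r and from 0.0266 to 0.0772 for rho. Uap1, Gfpt1, Has3 and Hyal2 were in none of the 10 pairs.

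**Figure D4:**
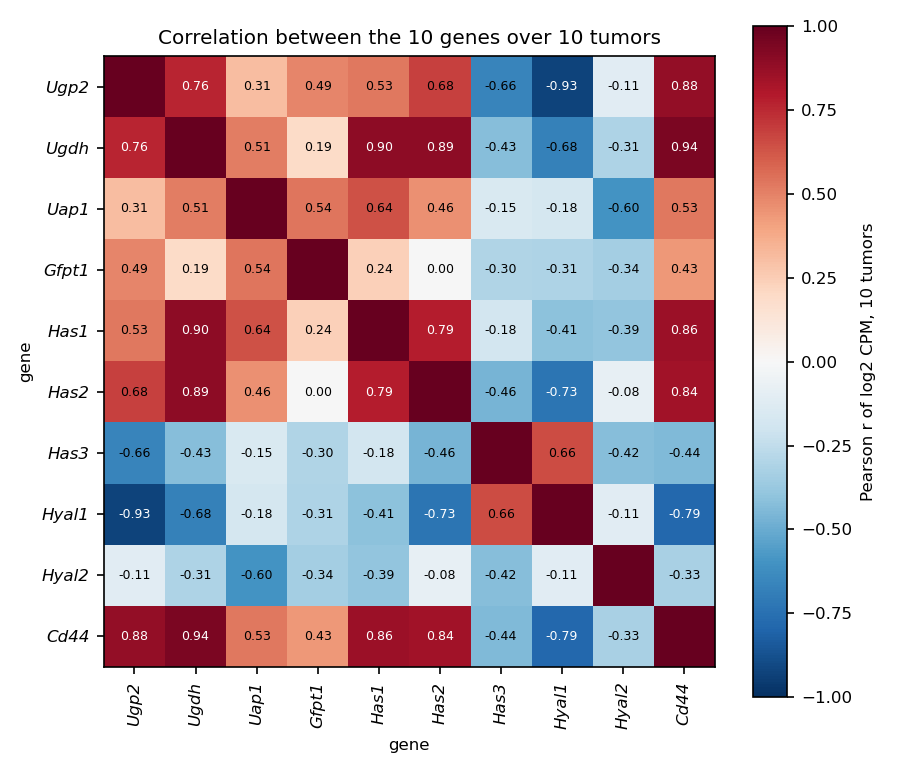
Pearson's r of log2 CPM over the 10 tumors for each pair of the 10 genes, on a color scale from -1 to 1. Ugdh, Has1, Has2, Ugp2 and Cd44 form a block of positive values (0.94 for Ugdh and Cd44), and Hyal1 is negative against them.

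Much of this relation rests on sgNT 4 and sgCda 3, the tumors with the highest Cd44, Has1 and Has2. Without them (n = 8) r was 0.81 for Ugdh and Cd44, 0.78 for Ugdh and Has1 and 0.68 for Ugdh and Has2. It was 0.47 for Has2 and Cd44, -0.82 for Ugp2 and Hyal1 and -0.40 for Hyal1 and Cd44. Of the 45 pairs 0 passed after adjustment of the permutation p. Without sgCda 3 and sgCda 4 (n = 8), 3 pairs passed, Ugdh with Has1, Ugdh with Cd44 and Has1 with Cd44 (permutation adjusted p = 0.039 each). With each tumor left out in turn, 5 pairs passed in all 10 repeats, namely Ugdh with Has1, Has2 and Cd44, Has1 with Cd44 and Ugp2 with Hyal1. Leaving out the 2 tumors farthest from the median of the first gene gave r of 0.82 for Ugp2 and Cd44, -0.70 for Ugp2 and Hyal1 and 0.70 for Ugp2 and Ugdh (all without sgCda 3 and sgCda 4). It gave -0.58 for Hyal1 and Cd44 (also without sgCda 3 and sgCda 4), 0.79 for Has1 and Cd44 and 0.59 for Has1 and Has2 (both without sgCda 2 and sgNT 4).

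**Figure D5:**
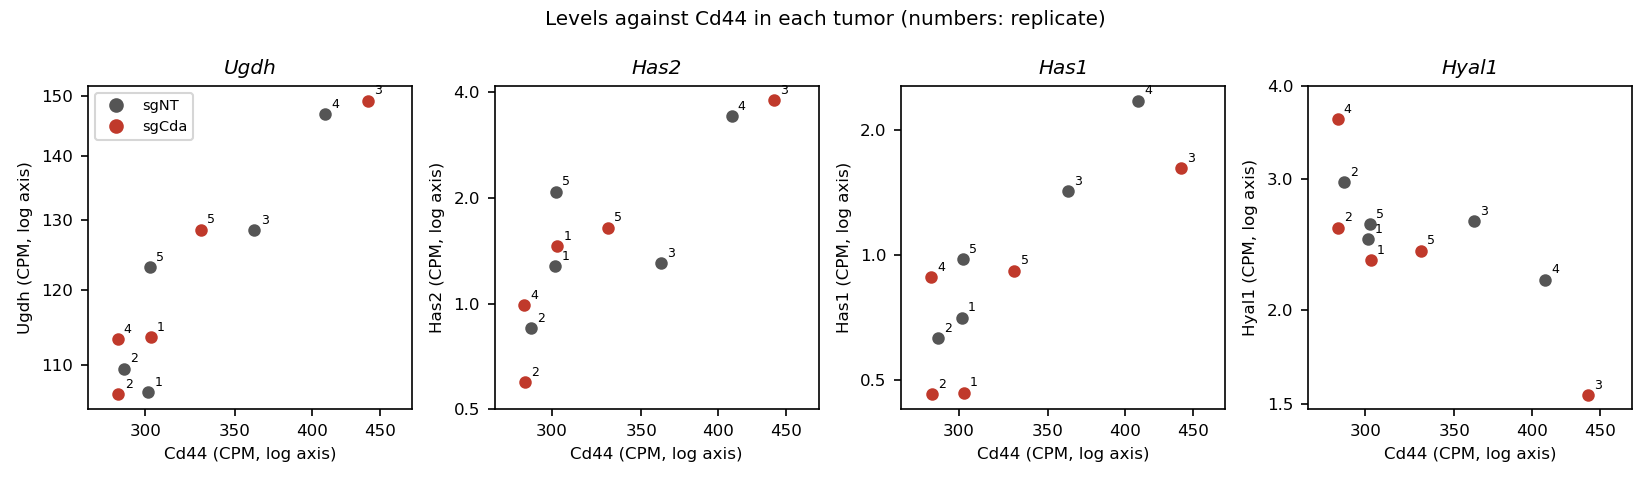
Levels of Ugdh, Has2, Has1 and Hyal1 against that of Cd44 in each tumor, in CPM on log axes, with sgNT tumors in grey, sgCda tumors in red and replicate numbers beside the points. Tumors sgNT 4 and sgCda 3 lie at the right end of each panel. Hyal1 is lower where Cd44 is higher (r -0.79, and -0.40 without these tumors).

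Values for the tumors as a whole are given beside these pairs. Along the first principal component of all genes, which held 40.7% of the variance, r was 0.88 for Ugp2, 0.83 for Cd44, 0.74 for Ugdh, 0.73 for Has2, 0.54 for Has1, -0.65 for Has3 and -0.91 for Hyal1, as a description. At the stricter limit of 0.9, 1.48% of the other tested genes followed Cd44 and 2.31% ran against it, and for Has2 these shares were 0.235% and 0.248%. Of 100 relations between the 10 genes and 10 marker scores, 15 had a permutation p under 0.05 and 0 passed adjustment. The nearest were the cell cycle score with Ugdh (r 0.87), Has2 (0.84) and Cd44 (0.83), the endothelial score with Has2 (r 0.82) and the fibroblast score with Hyal2 (r 0.83), each with a permutation adjusted p of 0.066. Their unadjusted permutation p ran from 0.0012 to 0.0033. Has1 with Cd44, a pair that passed, had an unadjusted permutation p of 0.0015. Adjustment ran over 100 relations here and over 45 for the pairs, so the 2 counts of passing relations cannot be compared directly. The part of proliferation or of cell makeup in the shared variation was not tested.

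The marker lists themselves overlapped between guides. The cell cycle score was 6.79 to 7.23 in sgNT tumors and 6.56 to 7.26 in sgCda tumors, on the log2 CPM scale, and the summed level of 10 fibroblast markers was 4120 to 8570 CPM and 4713 to 7700 CPM. Skeletal muscle markers, which could be carried over from the flank, had a mean log2 CPM of -1.64 to 5.51 in sgNT tumors and -1.81 to 7.48 in sgCda tumors, with 0 of 10 at an unadjusted p under 0.05. The highest value of each group was in sgNT 4 and sgCda 3. All 10 were higher in sgCda tumors, with a median log2 fold change of 1.66. Also higher were 10 of 10 T cell, 4 of 10 macrophage, 3 of 10 fibroblast and 2 of 10 endothelial markers. So were 1 of 10 cell cycle, 5 of 6 neutrophil, 5 of 8 adipocyte and 5 of 8 carcinoma markers, against 52.9% of all genes. Markers of 1 cell type are not independent of each other. The T cell score was 4.55 to 5.13 in sgNT tumors and 4.14 to 5.58 in sgCda tumors. It was highest in sgCda 3 (5.58) and lowest of all tumors in sgCda 5 (4.14) and sgCda 4 (4.24). Of the T cell markers, 0 of 10 had an unadjusted edgeR p under 0.05. Of 8 keratinocyte markers, 7 were in the count table and only Krt10 passed the filter. Its log2 CPM was 3.81 in sgNT 4 and 1.74 to 2.39 in the other tumors. The summed level of the 7 was 4.37 to 24.4 CPM in sgNT tumors and 3.53 to 5.67 CPM in sgCda tumors. The part of skin in the values of sgNT 4 was not tested.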

How the data were processed

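RNA-seq was performed by the authors on total RNA from 5 sgNT and 5 sgCda Panc02 tumors, with polyadenylated RNA selection and a stranded library kit. The authors aligned the trimmed reads to GRCm38 (mm10) with TopHat and Bowtie and counted reads per Ensembl gene with HTSeq. The submitters' processing notes list FastQC 0.11.5, Bowtie2 and HTSeq 07.2, and the strand setting and annotation release were not given in the sources used here. The deposited values are whole-number gene counts with no normalization by the authors. HTSeq drops reads that align to several places or overlap several genes, so shared exons lower a count.

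Counts were filtered with filterByExpr (minimum count 10, minimum total 15), scaled by TMM and compared by edgeR's quasi-likelihood test (edgeR 4.0.16, R 4.3.3), with Benjamini-Hochberg adjustment over the 15299 genes left. CPM were computed on TMM-scaled library sizes, and log2 CPM used a prior count of 2. Levels per kilobase used the merged exons of the GENCODE annotation of GRCm38. Symbols were found for 32608 of the 37417 identifiers. Correlations were tested by two-sided permutation (100000 resamples). The tests were tested on simulated data. Members and lists were chosen with earlier results of these data known. The genes named were the 10 members, Cda, wider pathway genes with an unadjusted p under 0.05 or the largest fold change in each direction, Gfpt2, Hmmr, P2ry14, and the 3 genes most like Has2 and Cd44. Outside this rule, epithelial markers and Krt10 are named from the marker lists, after their values were seen, to describe the tissue, and Extl3 for a count that includes it. The promoters shown, and the tumors sgNT 4 and sgCda 3 left out together, were chosen after their values were seen. Alternatives were DESeq2's size factors and Wald test (DESeq2 1.42.0), limma-voom (limma 3.58.1), library totals, a filter of 1 count, the replicate number as a block, a prior count of 0.5, and leaving out tumors. The 3-count floor covers counting error only.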

Additional observations from a re-analysis of the deposited data

How the results depend on the processing

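None of the 10 genes passed an adjusted or an unadjusted p of 0.05 in the main analysis or in any of 17 alternatives, and 0 of all genes passed an adjusted p of 0.05 in each of them. At an unadjusted p under 0.05, edgeR gave 382 of all genes, the filter of 1 count 830, DESeq2's Wald test 433, limma-voom 317, the replicate block 325 and the removal of sgCda 3 and 4 519, with 280 to 747 (the latter without sgCda 3) when each tumor was left out in turn. Uap1, Gfpt1 and Has1 kept a negative sign throughout. The log2 fold change of Ugdh was 0.0029 with library totals, and without sgCda 3 and 4 that of Has3 was -0.056 and that of Hyal2 0.067. With each tumor left out in turn, values ran from -0.14 to 0.064 for Cd44, -0.84 to -0.11 for Has1, -0.61 to 0.29 for Has2, -0.066 to 0.39 for Has3, -0.22 to 0.080 for Hyal1, -0.11 to 0.0052 for Hyal2, -0.092 to 0.058 for Ugdh and -0.030 to 0.11 for Ugp2.

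The wider pathway count at an unadjusted p under 0.05 was 1 in the main analysis, 1 to 3 with each tumor left out, 2 without sgCda 3 and 4 and 2 with the replicate block, where Extl3 joined Itih2. Same-numbered tumors correlated with r of -0.43 to 0.34 in their deviations, over 0.1 in 2 of 5 pairs, so the numbers were not taken to pair the tumors, and 3 of 10 tumors were closest to their own number. The block changed no other call.

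The 10 called pairs of genes became 5 (without sgCda 3) to 11 with each tumor left out (6 without sgNT 4), 3 without sgCda 3 and 4 and 0 without sgNT 4 and sgCda 3. The 0 called relations with marker scores became up to 3 with each tumor left out (from 0, with 3 without sgNT 2) and 1 without sgCda 3 and 4. The cause was not tested. Counts of 16 to 136 limited the synthases.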

Other observations

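Genes whose log2 CPM followed a member most closely over the 10 tumors, among 11357 candidates, are given as a description with no p. For Has2 they were F2rl1, the protease-activated receptor PAR2 (r 0.97), Msantd3 (r 0.96) and Nrarp, a feedback inhibitor of Notch signalling (r 0.95). For Cd44 they were Shmt1, the cytosolic serine hydroxymethyltransferase of folate metabolism (r 0.98), Ctps, CTP synthase, which makes CTP from UTP (r 0.98), and Adam8, a membrane metalloprotease (r 0.98). The closest of so many candidates have a high r by selection, and the points share libraries and depth.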
